A study of Mus musculus with 9 samples.

Results

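The 9 genes described here are receptors for extracellular nucleotides and the ectoenzymes that remove those nucleotides. They were chosen by gene name from the gene count table as a functional family, namely P2ry14, P2ry2, P2ry1, P2ry12, P2rx1, P2rx4, P2rx7, Entpd1 and Nt5e, and are 9 of the 56748 genes listed. The family was proposed with expression results of these libraries in view and no threshold on the values was set, so the values below are a description. Bulk RNA-seq was run on haematopoietic stem cells (HSCs) of bone marrow from female C57BL/6 mice, in 3 groups of 3 libraries. The yHSC group came from young mice of 6 to 10 weeks. The Selp_low and Selp_high groups are pre-aged HSCs (paHSCs) from mice of 14 to 16 months, divided by surface P-selectin, the adhesion receptor that Selp encodes. The study sorted HSCs as lineage-negative Sca1+ c-Kit+ CD48- CD150+ cells, and the labels name no allele, transgene or treatment for any group. Bulk RNA of so rare a population needed a low-input amplification kit. The study calls the libraries of a group biological repeats, and how many mice each library pooled is not given in the sources used here.

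Cells release ATP, ADP, UTP and UDP-sugars when they are activated, stressed or damaged. P2X receptors are ion channels opened by ATP, whereas P2Y receptors are G-protein-coupled receptors with distinct nucleotide ligands. ENTPD1 (CD39) removes phosphates from ATP and ADP to give AMP, and NT5E (CD73) converts AMP to adenosine, which acts on its own receptors. In blood, P2RY1, P2RY12 and P2RX1 are the nucleotide receptors of platelets, and P2RY14, the receptor for UDP-glucose, is known from work on HSCs under stress.

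Library totals ranged from 24866975 to 35375310 counts, and levels are given as CPM, the counts relative to a library total scaled by TMM factors. The Selp transcript followed the sort, at 264 to 652 CPM in Selp_high, 29.3 to 109 CPM in Selp_low and 20.5 to 30.0 CPM in yHSC libraries. The HSC genes Kit, Hlf, Mecom, Procr and Fgd5 were detected in all groups, with means of 448, 279, 79.7, 85.7 and 22.6 CPM in yHSC, 344, 161, 92.2, 154 and 27.7 CPM in Selp_high and lower means of 134, 53.3, 31.8, 44.3 and 7.21 CPM in Selp_low libraries. Other HSC genes were not lowest in Selp_low. Ly6a averaged 162 CPM in yHSC, 247 CPM in Selp_high and 528 CPM in Selp_low libraries, with 69.6 to 879 CPM in the last. Slamf1 averaged 15.1, 145 and 56.6 CPM, and Cd34 averaged 733, 75.4 and 79.3 CPM, in the same group order. Cd48, which the sort gated out, was at 174, 309 and 22.7 CPM in Selp_low and between 11.6 and 38.6 CPM in the other libraries. Some libraries stood apart. Selp_low replicate 2 gave 44.8% of its counts to 10 genes and held 100051 CPM of 4 plasma cell markers. Most of that was Jchain at 98263 CPM, with Xbp1 at 1463, Sdc1 at 251 and Mzb1 at 74.4 CPM. Selp_low replicate 3 held 212712 CPM of 9 neutrophil markers, which summed to 64842 CPM in yHSC replicate 1 and 41897 CPM in Selp_high replicate 3. The 7 B lineage markers, all detected in each group, summed to 5228, 7399 and 55.8 CPM in Selp_low replicates 1, 2 and 3, and to between 92.1 and 445 CPM in the other libraries. Some marker lists that moved with a member are given beside it, and their part in the result was not tested.

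Promoters are printed for the 4 members whose Selp_high and yHSC libraries did not overlap and differed by a log2 fold change of at least 1 in either direction. They span 250 bases before to 50 bases after a RefSeq start in GRCm38.p6, another build than the mm39 coordinates of the count table, and are written 5′ to 3′ on the gene's strand. All 9 members matched an entry, in 15 windows. Capitals mark the motifs searched on both strands, a GATA motif (AGATAA), a RUNX motif (TGTGGT) and an ETS motif (CGGAAG), and no matches overlapped. The windows are chr3:59153443-59153742 (minus strand, the outermost of 4 P2ry14 starts), chr7:101012004-101012303 (minus, the outer of 2 P2ry2 starts), chr11:72998895-72999194 (plus, P2rx1) and chr3:61002535-61002834 (plus, P2ry1).
P2ry14: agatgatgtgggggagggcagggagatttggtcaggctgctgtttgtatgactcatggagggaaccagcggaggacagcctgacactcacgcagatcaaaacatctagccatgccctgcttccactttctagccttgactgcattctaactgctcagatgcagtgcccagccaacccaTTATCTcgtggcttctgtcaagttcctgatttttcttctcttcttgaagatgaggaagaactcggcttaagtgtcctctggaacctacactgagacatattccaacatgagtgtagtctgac
P2ry2: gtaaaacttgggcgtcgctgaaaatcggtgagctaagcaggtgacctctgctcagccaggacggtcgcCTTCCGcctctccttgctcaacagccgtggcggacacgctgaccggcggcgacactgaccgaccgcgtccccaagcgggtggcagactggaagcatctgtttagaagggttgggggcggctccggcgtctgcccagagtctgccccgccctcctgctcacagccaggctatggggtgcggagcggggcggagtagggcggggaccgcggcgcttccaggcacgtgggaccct
P2rx1: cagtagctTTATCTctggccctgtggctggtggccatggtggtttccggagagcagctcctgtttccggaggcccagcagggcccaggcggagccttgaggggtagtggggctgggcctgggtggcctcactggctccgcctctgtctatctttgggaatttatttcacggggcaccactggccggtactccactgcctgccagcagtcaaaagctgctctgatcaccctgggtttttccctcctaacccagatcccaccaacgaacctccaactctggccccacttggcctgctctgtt
P2ry1: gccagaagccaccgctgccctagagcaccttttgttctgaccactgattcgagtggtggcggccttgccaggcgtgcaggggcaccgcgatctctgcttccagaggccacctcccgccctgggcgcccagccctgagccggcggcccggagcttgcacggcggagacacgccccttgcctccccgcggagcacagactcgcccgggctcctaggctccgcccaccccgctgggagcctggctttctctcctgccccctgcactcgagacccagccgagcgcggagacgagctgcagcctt
The P2ry14 and P2rx1 windows each held 1 GATA match on the reverse strand, at bases 179 to 184 and at bases 9 to 14 of the window. Of the other 3 P2ry14 windows, 2 also held a GATA match. The GATA motif occurred in 11.2% of all 32851 promoter windows. P2ry2 held 1 ETS match, a motif present in 16.9% of all windows, and P2ry1 held none of the 3 motifs. The RUNX motif, present in 16.8% of all windows, was in none of these 4 windows. Base composition set the windows apart, since G and C made up 70.7% of the P2ry1 window and 67.3% of the P2ry2 window against 60.7% for P2rx1, 49.3% for P2ry14 and a median of 52.7% over all windows. The P2ry1 and P2ry2 windows held 25 and 28 CpG dinucleotides, and those of P2ry14 and P2rx1 held 4 and 7, where the median of all windows was 7.

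Each pair of groups was compared by edgeR's quasi-likelihood test over the whole table, and a gene was called at a Benjamini-Hochberg adjusted p of 0.05 or less with a log2 fold change of at least 1 in size. All 9 members passed the filter on low counts in the 3 comparisons. In Selp_high over Selp_low, edgeR called 0 of 9 members and 0% of all 20370 genes tested. Selp, the gene of the sort, was thus not called either (log2 fold change 2.34, SE 0.60, edgeR adjusted p = 0.338). A fit with the replicate number as a block again called 0 members, and 0.0442% of all genes. At an unadjusted p under 0.05, edgeR had 3 members, P2rx1, P2ry12 and Nt5e, against 12.5% of all genes. DESeq2, the study's tool, called 2 members, P2rx1 and Nt5e, and 5.52% of all genes. P2rx1 was the only member with every Selp_high library above every Selp_low library, a pattern of 10.3% of all genes, and Nt5e the only one with every library below, a pattern of 10.6%.

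In Selp_high over yHSC, edgeR called 1 of 9 members, P2ry14, which was lower, and 0.165% of all 20017 genes tested. With a replicate block it called 0 members and 0% of all genes, although yHSC numbers do not pair with those of paHSCs. At an unadjusted p under 0.05, edgeR had 5 members, against 7.59% of all genes, and DESeq2 called 4, P2ry14, P2ry2, P2rx1 and P2ry1, against 3.73%. P2rx1 and P2ry1 were higher without overlap, as were 8.52% of all genes. P2ry14, P2ry2 and Entpd1 were lower without overlap, as were 5.28%. In Selp_low over yHSC, edgeR called 0 members and 0% of all 20437 genes, with the block as well (0%). At an unadjusted p under 0.05 it had 3 members, P2ry14, P2ry2 and P2ry1, against 11.3%. DESeq2 called 2, P2ry14 and P2ry2, against 6.13%. Those same 2 were lower without overlap, as were 6.74% of all genes, and 0 members were higher without overlap, against 9.59%. The comparisons share libraries and are not independent of each other. Median log2 fold changes of the 9 members were 0.25, -0.54 and -0.26 in Selp_high over Selp_low, Selp_high over yHSC and Selp_low over yHSC, beside -0.11, -0.03 and 0.08 for all genes tested.

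**Figure D1:**
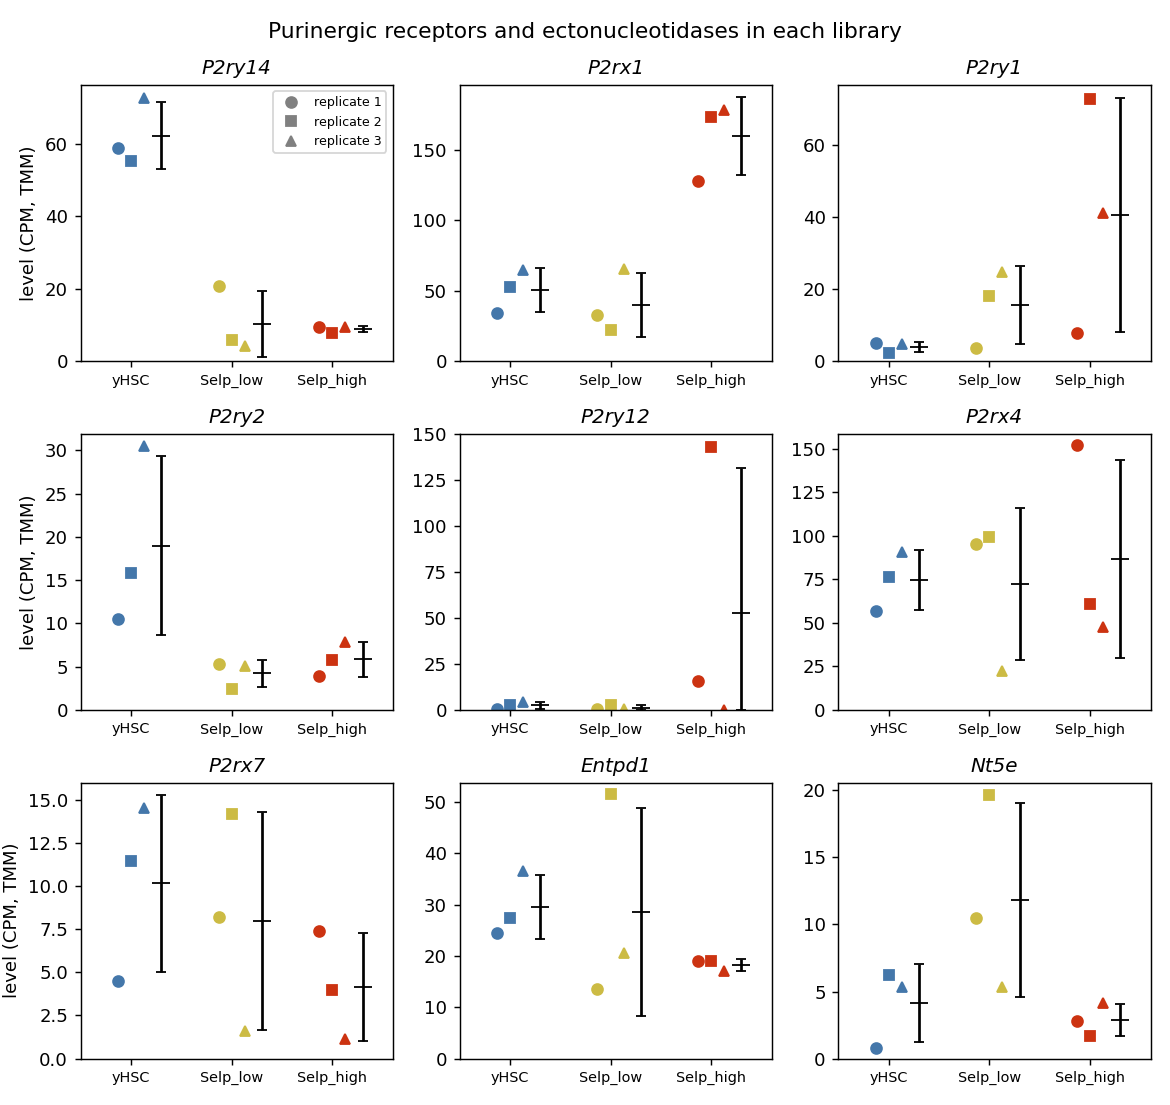
Level of each of the 9 genes (vertical axis, CPM with TMM scaling, each panel on its own scale from 0) in the 3 libraries of yHSC, Selp_low and Selp_high HSCs. Symbols are replicates, and the black dash and bar are the mean and SD (cut at 0). P2ry14 and P2ry2 sat highest in yHSCs, P2rx1 in Selp_high paHSCs, and P2ry12 rested on 1 Selp_high library at 143 CPM.

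P2ry14, which encodes the UDP-glucose receptor, was the 1 member that edgeR called, at a lower level in Selp_high paHSCs than in yHSCs. Its level was 59.1, 55.2 and 72.8 CPM in the yHSC libraries, 20.6, 5.80 and 4.05 CPM in the Selp_low libraries, and 9.30, 7.78 and 9.51 CPM in the Selp_high libraries. Every paHSC library lay below every yHSC library, and the Selp_high values lay inside the Selp_low range. The mean fell from 62.4 ± 9.24 CPM (SD, n = 3) in yHSCs to 8.86 ± 0.942 CPM (SD, n = 3) in Selp_high paHSCs, a log2 fold change of -2.84 (SE 0.26, edgeR adjusted p = 0.0191, DESeq2 adjusted p = 1.12e-26). The edgeR call was lost without yHSC replicate 2 (adjusted p = 0.109) or 3 (0.177) and without Selp_high replicate 2 (0.0826) or 3 (0.0889), and in 1 fit of all 9 libraries (0.139), while the fold change stayed between -2.89 and -2.76. The Selp_low libraries gave a log2 fold change over yHSC of -2.56 (SE 0.64, edgeR adjusted p = 0.332, DESeq2 adjusted p = 0.00381). The DESeq2 call was lost without yHSC replicate 3 (adjusted p = 0.0885) or Selp_low replicate 2 (adjusted p = 0.0576). Between Selp_high and Selp_low the difference was -0.21 (SE 0.63, edgeR adjusted p = 0.916), and its sign turned to 0.85 without Selp_low replicate 1 and to 0.17 with the replicate block. In bulk RNA, fewer cells with the transcript and less transcript per cell cannot be told apart.

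P2ry14 lies on the minus strand of chromosome 3 (mm39, 59021276 to 59061039), inside Med12l, a Mediator subunit gene on the plus strand that also spans P2ry13 and P2ry12. Whether reads were counted by strand is not given in the sources used here, so reads of these genes and of Med12l may not be separable. Med12l itself averaged 13.6 CPM in yHSC, 10.3 CPM in Selp_low and 22.4 CPM in Selp_high libraries, an order unlike that of P2ry14. Gpr171, a G-protein-coupled receptor gene on the same strand 12034 bases away, stood at 264, 267 and 409 CPM in yHSC, 207, 93.4 and 41.4 CPM in Selp_low and 167, 84.9 and 85.3 CPM in Selp_high libraries. All 6 paHSC libraries of Gpr171 lay below the 3 yHSC libraries, with a log2 fold change of -1.49 (SE 0.35) in Selp_high over yHSC (edgeR adjusted p = 0.229, DESeq2 adjusted p = 0.00202) and -1.39 (SE 0.58) in Selp_low over yHSC (edgeR adjusted p = 0.435, DESeq2 adjusted p = 0.135). P2ry13, an ADP receptor gene of the same cluster, averaged 7.13, 4.23 and 8.03 CPM in yHSC, Selp_low and Selp_high, and its libraries overlapped between groups. The paHSC libraries of P2ry13 ranged from 0.983 to 11.7 CPM, around the 5.05 to 10.7 CPM of yHSC libraries.

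**Figure D2:**
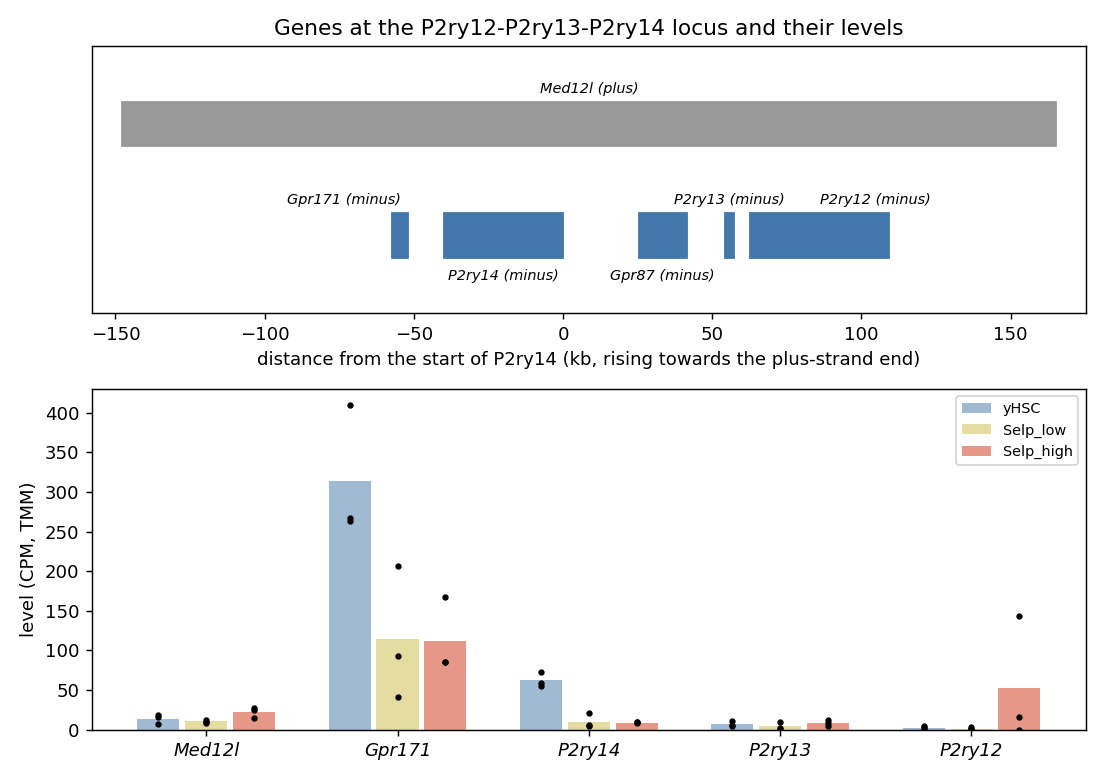
Top, spans of the genes around P2ry14 (horizontal axis, distance from the P2ry14 start in kb, mm39), with Med12l on the plus strand and the others on the minus strand. Bottom, mean level (bars, CPM) and libraries (points) of each gene in yHSC, Selp_low and Selp_high HSCs, for genes above 1 CPM. P2ry14 and Gpr171 were lower in all 6 paHSC libraries, and P2ry12 reached 143 CPM in 1 Selp_high library.

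P2ry2, which encodes a receptor for ATP and UTP, had the other low level in paHSCs. It stood at 10.6, 15.9 and 30.5 CPM in yHSC, 5.24, 2.44 and 5.06 CPM in Selp_low and 3.90, 5.74 and 7.85 CPM in Selp_high libraries. The yHSC libraries were all above the 6 paHSC libraries, and the paHSC fractions overlapped. The log2 fold change was -1.71 (SE 0.46) in Selp_high over yHSC (edgeR adjusted p = 0.327, DESeq2 adjusted p = 0.0171) and -2.10 (SE 0.50) in Selp_low over yHSC (edgeR adjusted p = 0.332, DESeq2 adjusted p = 0.00302). The first DESeq2 call was lost without yHSC replicate 2 (adjusted p = 0.101) or 3 (0.377) and without Selp_high replicate 1 (0.0754) or 2 (0.0856). The second DESeq2 call was lost without yHSC replicate 2 (adjusted p = 0.0644) or 3 (0.127) and without Selp_low replicate 2 (0.0540). In Selp_high over Selp_low the difference was 0.45 (SE 0.49, edgeR adjusted p = 0.741). The gene lies on chromosome 7 (mm39, 100645775 to 100662073, minus strand), 21919 bases from P2ry6, a UDP receptor gene that averaged 2.78 CPM in yHSC, 1.01 CPM in Selp_low and 1.08 CPM in Selp_high libraries.

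P2ry1, the Gq-coupled ADP receptor gene of platelets, was higher in Selp_high paHSCs than in yHSCs. Its level was 4.98, 2.36 and 4.62 CPM in yHSC, 3.57, 18.1 and 24.8 CPM in Selp_low and 7.70, 72.9 and 41.2 CPM in Selp_high libraries. Every Selp_high library was above every yHSC library, but Selp_high replicate 1 lay below 2 of the Selp_low libraries. The log2 fold change in Selp_high over yHSC was 3.33 (SE 0.79, edgeR adjusted p = 0.242, DESeq2 adjusted p = 0.00035), and DESeq2 kept the call without any 1 library. For Selp_low over yHSC it was 1.98 (SE 0.71, edgeR adjusted p = 0.370, DESeq2 adjusted p = 0.0783). In Selp_high over Selp_low it was 1.39 (SE 0.91, edgeR adjusted p = 0.573, DESeq2 adjusted p = 0.394). Selp_high exceeded Selp_low at 3 of 3 replicate numbers, which the labels do not tie to the same mice. With these numbers as a block, DESeq2 called the gene at 1.25 (adjusted p = 0.00804), where edgeR did not (adjusted p = 0.148). P2ry1 (chromosome 3, mm39, 60910216 to 60916403, plus strand) overlaps the lncRNA Gm37035 on the opposite strand, so the same limit on strand applies. Gm37035 averaged 0.0907, 0.297 and 2.28 CPM in yHSC, Selp_low and Selp_high libraries and differed by 4.62 (SE 1.55) in Selp_high over yHSC (edgeR adjusted p = 0.474, DESeq2 adjusted p = 0.0306).

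P2ry12, the Gi-coupled ADP receptor gene targeted by antiplatelet drugs, varied most within a group. It was at 0.542, 2.74 and 4.46 CPM in yHSC and at 0.262, 2.83 and 0.487 CPM in Selp_low libraries. The Selp_high libraries held 15.7, 143 and 0 CPM, the last being 0 counts, which allows a level of up to 0.0859 CPM by a limit of 3 counts for counting error only. Selp_high replicates 1 and 2 were above all 6 other libraries and replicate 3 was below all of them. The log2 fold change of 5.52 (SE 2.32) in Selp_high over Selp_low missed the threshold (edgeR adjusted p = 0.397, DESeq2 adjusted p = 0.169), as did 4.38 (SE 2.01) in Selp_high over yHSC (edgeR adjusted p = 0.717, DESeq2 adjusted p = 0.469). Both turned negative, at -0.82 and -2.41, under limma voom with quality weights. Without Selp_high replicate 3, DESeq2 called the gene in both comparisons (log2 fold changes 6.02 and 4.99, adjusted p = 0.000124 and 1.91e-05). Between Selp_low and yHSC the difference was -1.03 (SE 1.14, edgeR adjusted p = 0.864). The gene spans 59123693 to 59170292 on the minus strand of chromosome 3 (mm39), also within Med12l.

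P2rx1, the ATP-gated channel gene of platelets and smooth muscle, was the member that separated Selp_high from both other groups. Its level was 34.2, 52.4 and 64.6 CPM in yHSC, 32.5, 22.1 and 65.4 CPM in Selp_low and 128, 173 and 178 CPM in Selp_high libraries. The lowest Selp_high library was above the highest of the other 6, whereas yHSC and Selp_low libraries overlapped. The mean was 160 ± 27.7 CPM (SD, n = 3) in Selp_high against 40.0 ± 22.6 CPM (SD, n = 3) in Selp_low, a log2 fold change of 1.99 (SE 0.43) that DESeq2 called (adjusted p = 0.00243) and edgeR did not (adjusted p = 0.338, and 0.0919 with the replicate block). DESeq2 kept this call without any 1 library. Over yHSC, at 50.4 ± 15.3 CPM (SD, n = 3), the log2 fold change was 1.64 (SE 0.29, edgeR adjusted p = 0.118, DESeq2 adjusted p = 4.18e-06). In Selp_low over yHSC it was -0.29 (SE 0.42, edgeR adjusted p = 0.920). The gene lies on chromosome 11 (mm39, 72889929 to 72906026, plus strand) between Atp2a3 and Camkk1, both on the same strand. Camkk1, a calcium-dependent kinase gene 3808 bases away, differed by 1.81 (SE 0.54) in Selp_high over Selp_low (edgeR adjusted p = 0.338, DESeq2 adjusted p = 0.0408) but by 0.48 (SE 0.50) in Selp_high over yHSC (edgeR adjusted p = 0.985).

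Markers of megakaryocytes and platelets are given beside the 3 platelet receptor genes. The summed level of the 11 markers was 568, 946 and 1008 CPM in yHSC, 618, 1826 and 2561 CPM in Selp_low and 3125, 8748 and 5085 CPM in Selp_high libraries, with all 11 detected in both paHSC groups and Gp1bb at 0 in yHSCs. Their ranges did not overlap between Selp_high and the other groups, as for P2rx1. Within both paHSC groups, replicate 1 had the lowest marker sum and the lowest P2ry1 level. P2ry12 did not follow the sum in Selp_high, with 15.7 CPM in replicate 1 and 0 CPM in replicate 3. In Selp_low its lowest library was replicate 1 (0.262 CPM) and its highest was replicate 2 (2.83 CPM). For P2rx1 the lowest Selp_low library was replicate 2, and Selp_high replicates 2 and 3 were close. The 5 mast cell and basophil markers also summed higher in Selp_high without overlap. Their sum was 433, 522 and 428 CPM in Selp_high, 166, 267 and 255 CPM in Selp_low and 130, 280 and 333 CPM in yHSC libraries. Gata2 made up most of it, with means of 422, 189 and 234 CPM in the same group order. The other markers of this list did not separate Selp_high. Cpa3, Fcer1a and Ms4a2 had lower means in Selp_high than in Selp_low, and Mcpt8 had a higher mean. All of these had higher means in Selp_high than in yHSC, but their Selp_high ranges overlapped those of both other groups. The part of megakaryocyte-type RNA, or of RNA of the other list, in these values was not tested.

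P2rx4 and P2rx7, adjacent channel genes on chromosome 5, showed no separation between groups. P2rx4 encodes a channel of high ATP sensitivity and stood at 56.7, 76.6 and 90.6 CPM in yHSC, 95.6, 99.2 and 22.3 CPM in Selp_low and 152, 60.7 and 47.8 CPM in Selp_high libraries. The Selp_high range held all but 1 of the values of the other groups. Its log2 fold changes were 0.25 (SE 0.66), 0.20 (SE 0.45) and 0.03 (SE 0.55) in Selp_high over Selp_low, Selp_high over yHSC and Selp_low over yHSC, and each changed sign under some alternative. P2rx7 encodes the channel that needs high ATP and triggers the inflammasome, and stood at 4.50, 11.5 and 14.5 CPM in yHSC, 8.19, 14.2 and 1.57 CPM in Selp_low and 7.39, 3.97 and 1.12 CPM in Selp_high libraries. Groups overlapped in all comparisons. Its log2 fold changes were -0.95 (SE 0.92), -1.29 (SE 0.72) and -0.26 (SE 0.79) in the same order, with edgeR adjusted p of 0.704, 0.828 and 0.985. In every group both genes were lowest in the library with the highest sum of neutrophil markers, yHSC replicate 1 (64842 CPM), Selp_low replicate 3 (212712 CPM) and Selp_high replicate 3 (41897 CPM). The sum of 7 monocyte and macrophage markers, all detected in each group, was highest in the same libraries, at 10752, 27587 and 7614 CPM. Lyz2 gave most of it, with a highest library of 10461, 25577 and 7160 CPM in yHSC, Selp_low and Selp_high. Among Selp_low libraries P2rx4 and P2rx7 also followed the order of the B lineage sum (5228, 7399 and 55.8 CPM). The part of RNA of any of these lists was not tested. The genes span 122845607 to 122867801 (P2rx4) and 122781974 to 122829495 (P2rx7) on the plus strand (mm39), 16112 bases apart.

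Entpd1, the gene of CD39, differed little. It was at 24.5, 27.4 and 36.4 CPM in yHSC, 13.6, 51.6 and 20.6 CPM in Selp_low and 19.0, 19.0 and 17.0 CPM in Selp_high libraries. The Selp_high libraries were below all yHSC libraries, at a log2 fold change of -0.70 (SE 0.27) that missed the threshold (edgeR adjusted p = 0.582, DESeq2 adjusted p = 0.125). The Selp_low libraries spanned both groups, with 51.6 CPM in replicate 2, the library with plasma cell markers. The log2 fold change was -0.65 (SE 0.50) in Selp_high over Selp_low (edgeR adjusted p = 0.630), which turned to 0.13 without Selp_low replicate 2, and 0.02 (SE 0.51) in Selp_low over yHSC (edgeR adjusted p = 0.999). Entpd1 lies on chromosome 19 (mm39, 40600810 to 40730046, plus strand).

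Nt5e, the gene of CD73, was lower in Selp_high than in Selp_low paHSCs. It was at 0.812, 6.23 and 5.36 CPM in yHSC, 10.5, 19.6 and 5.36 CPM in Selp_low and 2.82, 1.72 and 4.12 CPM in Selp_high libraries. The Selp_low libraries were all above the Selp_high libraries, and yHSC libraries overlapped with both. The log2 fold change in Selp_high over Selp_low was -2.04 (SE 0.60), called by DESeq2 (adjusted p = 0.0271) but not by edgeR (adjusted p = 0.338). The DESeq2 call was lost without Selp_low replicate 1 (adjusted p = 0.0899) or 2 (0.362) and without Selp_high replicate 1 (0.110) or 2 (0.0806), the fold change without Selp_low replicate 2 being -1.49. The other log2 fold changes were -0.54 (SE 0.77, edgeR adjusted p = 0.998) in Selp_high over yHSC and 1.60 (SE 0.80, edgeR adjusted p = 0.522) in Selp_low over yHSC. The sum of 7 T and NK markers, all detected in each group, was 401, 1108 and 632 CPM in Selp_low, 155, 133 and 152 CPM in Selp_high and 89.1, 53.4 and 65.1 CPM in yHSC libraries. The sum was thus highest in Selp_low, but its genes did not move together. In Selp_low replicate 3, Nkg7 alone gave 619 CPM of it, and Cd3e was at 0.487 CPM. Klrb1c went the other way, at 39.2 to 102 CPM in Selp_high and 9.48 to 25.7 CPM in Selp_low libraries. The B lineage sum of 5228, 7399 and 55.8 CPM had the same order as Nt5e among the Selp_low libraries. So had the plasma cell sum, at 561, 100051 and 464 CPM, and Nt5e was highest in replicate 2. The part of any of these lists in the Nt5e level was not tested. Nt5e lies on chromosome 9 (mm39, 88209250 to 88254145, plus strand).

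The other genes within 50 kb of a member and above 1 CPM in a group were Atp2a3 and Ncbp3 (near P2rx1), Camkk2 and Ift81 (near P2rx4 or P2rx7), Aldh18a1, Tctn3, Cc2d2b and Gm27042 (near Entpd1), and Snx14 and Gm10163 (near Nt5e). None was called by edgeR in any comparison. DESeq2 called 1 of them, Ift81, in Selp_low over yHSC (log2 fold change -1.48, adjusted p = 0.0368). Tctn3, on the other strand with its start 133 bases from the Entpd1 start, averaged 18.7, 11.8 and 19.1 CPM in yHSC, Selp_low and Selp_high libraries, unlike the order of Entpd1.

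**Figure D3:**
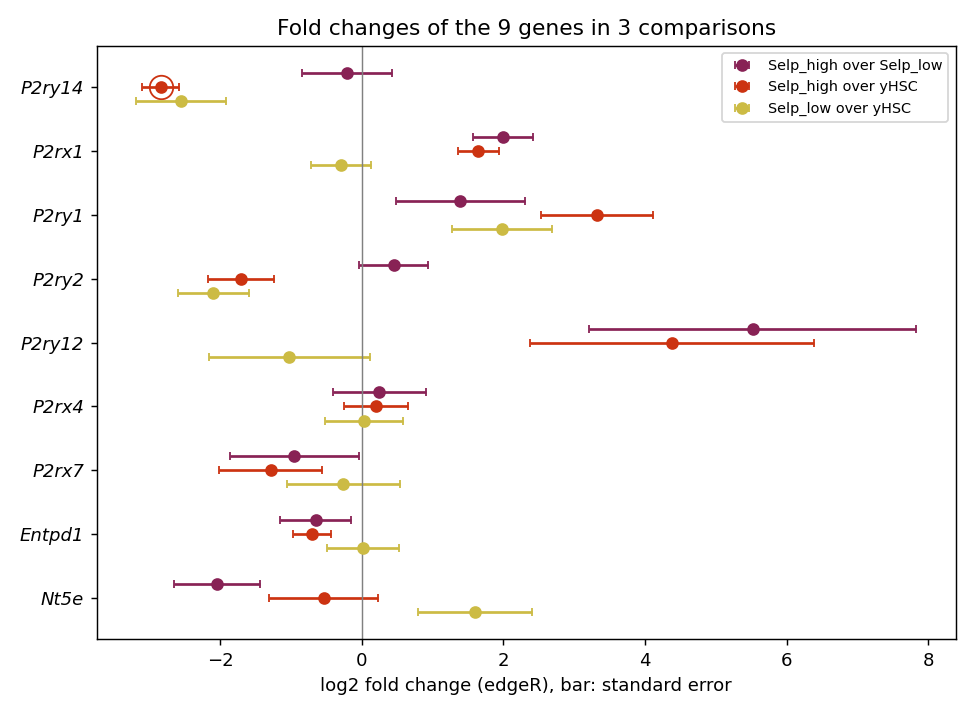
Log2 fold change by edgeR (horizontal axis, point) with its standard error (bar) for each of the 9 genes in 3 comparisons. The ring marks the 1 call, P2ry14 in Selp_high over yHSC at -2.84, and the widest bar is that of P2ry12 in Selp_high over Selp_low (SE 2.32).

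Levels per length, in FPKM computed from the gene lengths of the table, gave the order of the members within a group. P2rx1 was highest in all 3 groups, at 19.2 ± 5.83 FPKM in yHSC, 15.2 ± 8.62 FPKM in Selp_low and 60.8 ± 10.6 FPKM in Selp_high (SD, n = 3). In Selp_high paHSCs P2ry12 was next (20.8 ± 30.8 FPKM), by its 1 high library. P2rx4 was next in yHSC (10.6 ± 2.43 FPKM) and Selp_low (10.3 ± 6.18 FPKM), and P2rx1 and P2rx4 differed by less than their SDs in Selp_low. In yHSCs P2ry14 (5.64 ± 0.835 FPKM), Entpd1 (5.28 ± 1.12 FPKM) and P2ry2 (4.83 ± 2.63 FPKM) followed, within their spread of each other. In Selp_high paHSCs P2ry14 (0.802 ± 0.0851 FPKM) ranked 7 of 9, and P2ry1 (9.46 ± 7.60 FPKM) ranked 4, up from 8 in yHSCs. Nt5e was lowest in yHSC (0.481 ± 0.338 FPKM) and Selp_high (0.336 ± 0.140 FPKM), while P2ry12 was lowest in Selp_low (0.469 ± 0.559 FPKM). The log2 ratio of the CPM of P2rx1 to that of P2ry14, with 0.5 added to each CPM, was compared between libraries. CPM is not scaled by gene length (2625 bases for P2rx1 and 11059 for P2ry14). The sign of the ratio thus does not tell which gene was higher per length. The ratio was -0.78, -0.08 and -0.17 in yHSC, 0.64, 1.84 and 3.86 in Selp_low and 3.71, 4.39 and 4.16 in Selp_high libraries. The yHSC libraries stood below the paHSC libraries, and Selp_low replicate 3 reached the Selp_high range. Both genes were picked with results of these libraries known, so this ratio restates their separate levels and adds no support. The same ratio of Nt5e to Entpd1 was -4.25, -2.05 and -2.66 in yHSC and -0.36, -1.37 and -1.85 in Selp_low libraries. In Selp_high it was -2.56, -3.13 and -1.92, and yHSC and Selp_high libraries overlapped.

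The rest of the purinergic system was counted from a list of 46 genes grouped by function. In Selp_high over Selp_low 42 passed the filter, 16 with a positive and 26 with a negative fold change. In both comparisons with yHSC 43 passed, with 19 positive and 24 negative in Selp_high over yHSC and 22 and 21 in Selp_low over yHSC. edgeR called 0 of them in each comparison, with 4, 8 and 5 at an unadjusted p under 0.05, and DESeq2 called 1, 3 and 2. The shares of all genes were 12.5%, 7.59% and 11.3% at the unadjusted p, and 5.52%, 3.73% and 6.13% by DESeq2. Medians of the list were -0.22, -0.28 and 0.02. Of the 9 genes that handle adenosine and passed in Selp_high over yHSC, 7 had a negative fold change, with a median of -1.03, but edgeR called 0. Of all genes tested there, 10450 of 20017 had a negative fold change. The same class had 6 positive and 4 negative fold changes in Selp_low over yHSC, with a median of 0.35, and 2 and 8 in Selp_high over Selp_low, with a median of -0.74.

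Among ectonucleotidases outside the members, Cd38, the NAD-consuming ectoenzyme of many blood cells, had the largest difference from yHSCs. It was at 9.58, 14.7 and 16.2 CPM in yHSC, 150, 141 and 19.4 CPM in Selp_low and 136, 89.5 and 54.5 CPM in Selp_high libraries. All 6 paHSC libraries were above the 3 yHSC libraries, Selp_low replicate 3 only narrowly. Within Selp_low, the high values were those of replicates 1 and 2, where B lineage markers were at 5228 and 7399 CPM against 55.8 CPM in replicate 3, and the part of that RNA was not tested. The log2 fold change was 2.77 (SE 0.41) in Selp_high over yHSC (edgeR adjusted p = 0.0776, DESeq2 adjusted p = 5.18e-09) and 3.02 (SE 0.75) in Selp_low over yHSC (edgeR adjusted p = 0.332, DESeq2 adjusted p = 0.00218). Entpd2, which turns ATP into ADP, was at 0.237, 0.255 and 0.738 CPM in yHSC and 3.33, 1.92 and 3.04 CPM in Selp_high libraries (log2 fold change 2.74, SE 0.80, edgeR adjusted p = 0.379, DESeq2 adjusted p = 0.0192). Entpd3, of the same family, was at 2.67, 3.15 and 3.28 CPM in yHSC and 1.11, 0.198 and 0.749 CPM in Selp_low libraries (log2 fold change -2.08, SE 0.75, edgeR adjusted p = 0.370, DESeq2 adjusted p = 0.0433). Entpd8, with a mean of 0.942 CPM in yHSC and 0.303 CPM in Selp_high libraries, had a log2 fold change of -1.66 (edgeR adjusted p = 0.985).

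Among the remaining receptors, P2ry10, a receptor gene of lymphocytes, had the largest fold change of Selp_high over Selp_low, at -3.29 (SE 1.23, edgeR adjusted p = 0.362, DESeq2 adjusted p = 0.0337). It stood at 60.8, 56.7 and 1.27 CPM in Selp_low, 2.58, 7.24 and 2.41 CPM in Selp_high and 6.87, 10.4 and 17.0 CPM in yHSC libraries. The high values were in Selp_low replicates 1 and 2, the libraries with 5228 and 7399 CPM of B lineage markers, and the part of that RNA was not tested. The related gene P2ry10b differed by -1.94 (SE 0.86) in the same comparison. In Selp_low over yHSC, P2ry10 differed by 1.88 (SE 1.13), and P2rx2, a channel gene at or below 1.37 CPM in all libraries, by -3.65 (SE 1.15, edgeR adjusted p = 0.343). Of the adenosine receptor genes, Adora2a, the Gs-coupled receptor of lymphocytes and platelets, was at 5.62, 21.1 and 24.1 CPM in yHSC, 7.93, 7.71 and 8.13 CPM in Selp_low and 17.2, 25.8 and 6.50 CPM in Selp_high libraries, and groups overlapped. Adora2b ranged from 0.988 to 9.74 CPM, and the highest libraries of Adora1 and Adora3 were at 2.47 and 0.945 CPM. Their fold changes missed the threshold wherever they were tested.

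Among genes for adenosine handling and nucleotide release, Dpp4, a peptidase that binds adenosine deaminase, was at 46.4, 56.3 and 81.3 CPM in yHSC, 41.9, 47.7 and 10.5 CPM in Selp_low and 15.4, 23.0 and 13.9 CPM in Selp_high libraries. The Selp_high libraries were below all yHSC libraries, at a log2 fold change of -1.83 (SE 0.33, edgeR adjusted p = 0.127, DESeq2 adjusted p = 1.18e-05). Panx2, of the pannexin channel family, was at 1.83, 3.94 and 2.72 CPM in Selp_high and 0.950, 0.0659 and 0.525 CPM in Selp_low libraries, a log2 fold change of 2.42 (SE 0.92, edgeR adjusted p = 0.370). The nucleoside transporter gene Slc28a1, under 1 CPM in all libraries, differed by -1.95 (SE 1.67).

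**Figure D4:**
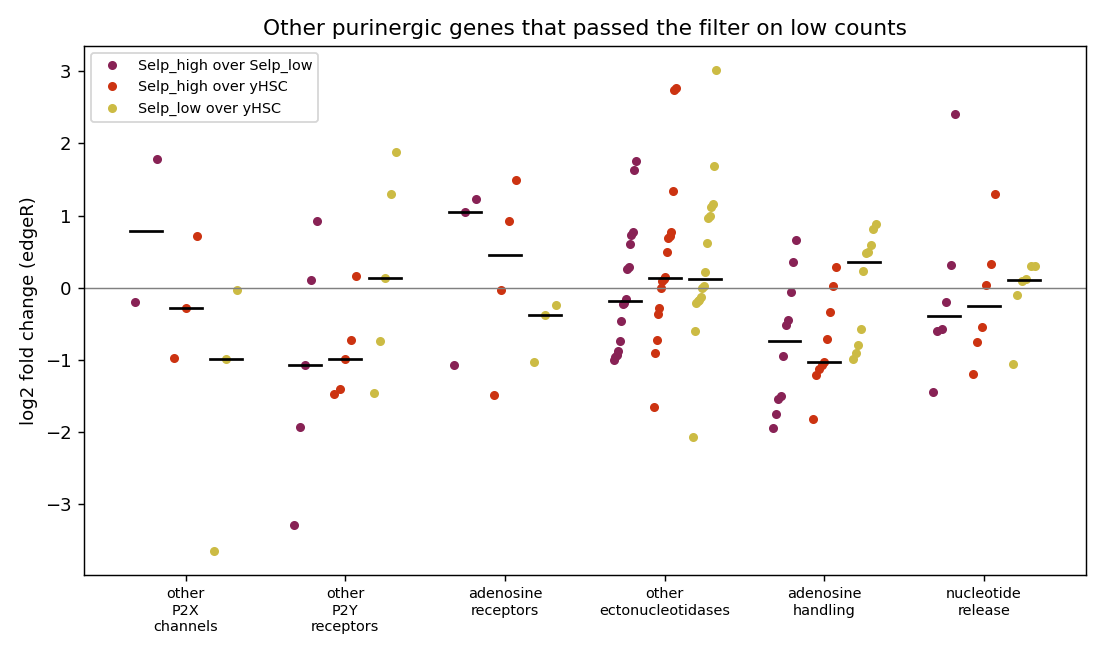
Log2 fold change by edgeR (vertical axis) of the other purinergic genes kept by the low-count filter, by functional class and comparison. Points are genes and black lines are medians. The median of the genes for adenosine handling, some of them near 1 CPM, lay at -1.03 in Selp_high over yHSC. The highest point is Cd38 at 3.02 in Selp_low over yHSC.

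Pearson's r of log2 CPM over the 9 libraries named the genes most like each member among 14341 genes, as a description that shares the groups and depth of these libraries. The pattern of P2ry14 was most like those of Ccl3 (r = 0.984), a chemokine gene, Cd209f (0.976) and Cd34 (0.969), the sialomucin gene used to divide stem and progenitor cells. Cd34 itself stood at 516, 740 and 943 CPM in yHSC and between 21.9 and 169 CPM in the 6 paHSC libraries. For P2rx1 the like genes included Fads1 (0.975), a fatty acid desaturase gene, and Cct4 (0.956), a chaperonin subunit gene. P2ry1 was most like Pde5a (0.994), the cGMP phosphodiesterase gene of platelets, Ufsp1 (0.985) and Slc14a1 (0.969). P2ry2 was most like Mb21d2 (0.953), Sh2d5 (0.951) and Ak4 (0.949), and P2ry12 was most like Lrrc32 (0.927), Ltbp2 (0.920) and Amigo2 (0.915). For P2rx4 the genes were Asb13 (0.975), Camk2d (0.960) and Gimap1 (0.954), and for P2rx7 they were Cdip1 (0.967), Kbtbd11 (0.958) and Zcchc7 (0.946). Entpd1 had the weakest likeness, to Ust (0.890), Ccdc117 (0.885) and Matn2 (0.881), and Nt5e was most like Eif1 (0.955), Ubald1 (0.940) and Pxk (0.938). Among the members themselves, P2ry14 was most like P2ry2 (r = 0.838) and least like P2ry1 (r = -0.767).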

How the data were processed

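The deposited table holds whole-number read counts per gene, which the authors made from trimmed reads with HISAT2 2.2.1 and featureCounts 2.0.6 on mm39 (versions from the submitters' processing notes). The sources used here name no strand setting or annotation release. FPKM was computed here from the counts and the gene lengths of the table. The table holds 0 unused columns of per-sample values. Members and lists were chosen with earlier results of these data known. Groups were compared 2 at a time with edgeR 4.0.16 (R 4.3.3; TMM, filterByExpr, quasi-likelihood test). SE is the log2 fold change divided by the root of F. DESeq2 1.42.0, after the same filter and with an alpha of 0.05, and limma 3.58.1 voom were alternatives, and other scalings, filters, a replicate block and leaving out each library were tried. The scripts were tested on simulated data. Selp_high and Selp_low libraries of the same replicate number had residual correlations of 0.178, 0.277 and 0.303, all over the limit of 0.1 set for pairing. Correlations with yHSC libraries ranged from -0.417 to 0.0917, so some were larger in size. The labels do not say whether Selp_high and Selp_low libraries of a number share mice, so pairing is not settled. Named were all members, their 3 most alike genes (1 of them is not reported here), expressed neighbours within 50 kb, and of the 46 listed genes the 4 largest fold changes per comparison and the adenosine receptors. Acp3 of that list is spelled Acpp in the table. Levels are CPM of 1 TMM scaling over 9 libraries, with a floor of 3 counts (0.0695 to 0.198 CPM). Promoters come from RefSeq (GRCm38.p6). Figures used matplotlib 3.10.9.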

Additional observations from a re-analysis of the deposited data

How the results depend on the processing

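Counts of called members depended on the tool and filter, while most fold changes kept their direction. In Selp_high over Selp_low, members called numbered 1 without a low-count filter, 2 by DESeq2 and 3 by DESeq2 with a replicate block, against 0, and the 46 other genes gave 1 by DESeq2 and 3 with its block, against 0. In Selp_high over yHSC, members called numbered 4 without the filter, 4 by DESeq2, 4 by DESeq2 with a replicate block, 3 by limma voom, 0 in 1 fit of all 9 libraries and 0 with a replicate block in edgeR, against 1. The other genes there gave 2 without the filter, 3 by DESeq2, 3 by limma voom, 1 by a newer quasi-likelihood setting and 5 by DESeq2 with a block, against 0. In Selp_low over yHSC, members called numbered 1 without the filter, 2 by DESeq2 and 2 with its block, and the other genes 1, 2 and 1, against 0. Leaving out 1 library at a time gave 0 to 1 members by edgeR in Selp_high over yHSC and 0 to 1 other genes in Selp_low over yHSC (1 without Selp_low replicate 3). By DESeq2, settings chosen after seeing the data, it gave 1 to 3 members in Selp_high over Selp_low, against 2, and 0 to 3 in Selp_low over yHSC, against 2, and DESeq2 without a filter gave 1 in Selp_high over Selp_low.

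The replicate block ended 1 edgeR call, that of P2ry14 in Selp_high over yHSC (log2 fold change -2.84, adjusted p = 0.120), where the numbers do not pair, and changed no other edgeR call of a member. All sign changes were of differences that edgeR did not call in the fit reported. In Selp_high over Selp_low, P2ry14 turned to 0.17 with the replicate block and 0.14 with the block in DESeq2 (leaving out libraries, -0.59 to 0.85), Entpd1 ranged from -0.98 to 0.13 and P2rx4 from -0.42 to 0.56 over left-out libraries, and limma voom gave -0.82 for P2ry12 and -0.47 for P2rx4. In Selp_high over yHSC, limma voom gave -2.41 for P2ry12 and -0.45 for P2rx4, and P2rx4 was -0.0073 with the block in DESeq2 and -0.49 to 0.52 over left-out libraries. In Selp_low over yHSC, P2rx4 was -0.10 without the filter, -0.045 in 1 fit of all libraries, -0.20 with the block, -0.24 with the block in DESeq2 and -0.34 to 0.38 over left-out libraries. There Entpd1 was -0.11, -0.043, -0.22 and -0.24 under the same settings, -0.46 by limma voom and -0.78 to 0.35 over left-out libraries, and P2rx7 was -1.06 to 0.13 over left-out libraries. The cause of these changes was not tested. With 3 libraries a group, an exact permutation test of a single gene could not go below p = 0.10, and members near 1 CPM rest on few counts.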
